A study of Danio rerio with 48 samples.

Results

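Single whole embryos of the zebrafish strain TL were compared with embryos of the strain AB at 2.25 hours post fertilisation (hpf), using the 12 embryos of that stage among 48 embryos of the series. The members were chosen by the strain and stage labels alone. TL (Tüpfel long fin) and AB are common laboratory strains of Danio rerio, and no mutation, transgene or treatment is named in the labels of either. The 6 TL embryos and the 6 AB embryos were each spread evenly over the biological replicates, embryos 1 to 3 belonging to replicate 1 and embryos 4 to 6 to replicate 2. Embryos came from natural spawning and were kept at 28.5 °C before collection in Trizol. The RNA was read by CEL-seq2, in which the RNA of each embryo is barcoded before samples are pooled and amplified. The other embryos of the series, at 3.25 hpf and at the 2 later stages (4.25 hpf, then 5.25 hpf), were used here only to follow the 2.25 hpf differences into later stages. The parents of each embryo are not given in the labels, so strain, spawning pair and clutch cannot be told apart beyond the replicate number, and p-values measure the spread between these embryos.

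A zebrafish egg is loaded by its mother with RNA and protein that run the first cleavages. The embryo's own genome is broadly switched on at the mid-blastula transition, and maternal RNA is then cleared by, among others, deadenylation through microRNAs and codon-dependent decay. At 2.25 hpf, before broad activation, most RNA in the embryo is maternal.

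Each embryo had between 5102880 and 17087400 counts over 32520 gene IDs. One ID, ENSDARG00000080337, took 23.6 ± 8.08% of the counts in TL embryos and 36.2 ± 14.3% in AB embryos (SD, n = 6 each) and was left out of all library totals. The difference in its share did not pass a two-sided exact permutation test within replicates (p = 0.07, adjusted p = 0.24 over 4 per-embryo quantities). Without it, depth was 7174700 ± 1945710 counts in TL embryos and 6935740 ± 1517130 in AB embryos (exact permutation p = 0.735). TL embryos had 16747.5 ± 816 detected IDs and AB embryos 17402.5 ± 489 (exact permutation p = 0.12). The 13 listed genes encoded by the mitochondrial genome took 3.12 ± 0.484% of the remaining counts in TL embryos and 2.98 ± 0.491% in AB embryos (exact permutation p = 0.585). This share covers those 13 genes only and is not the whole of mitochondrial RNA. The smallest p that 400 labellings allow is 0.005.

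The embryos separated by strain before any gene was tested. The first principal component of log2 CPM (the share of an embryo's counts, scaled by edgeR's TMM factors) held 39.8% of the variance and put all TL embryos on one side and all AB embryos on the other. The second component held 13.9% and put every embryo of replicate 2 (8.48 to 32.7) above every embryo of replicate 1, among which TL embryo 1 stood apart at -62.1. Embryos of different strains correlated less than embryos of one strain: the median correlation of log2 CPM was 0.900 between strains in different replicates and 0.908 in the same replicate, against 0.950 and 0.955 within TL, and 0.948 and 0.953 within AB. Germ plasm genes, the markers that early embryos must hold, were detected in both strains, with a summed level of 7099.6 to 9782 CPM over 19 genes in TL embryos and 8022 to 8703 CPM in AB embryos.

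**Figure D1:**
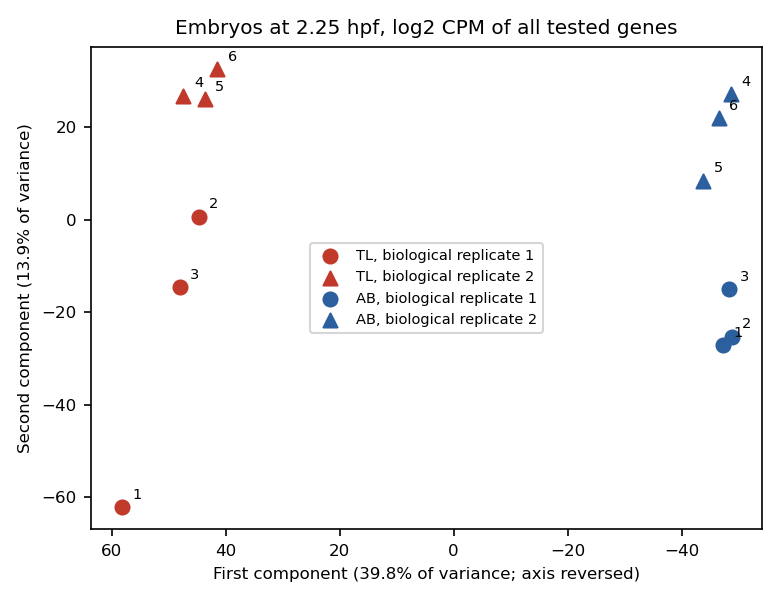
First 2 principal components of log2 CPM for the 12 embryos at 2.25 hpf, one point an embryo, with the embryo number beside it. TL embryos (red) lie on the left and AB embryos (blue) on the right along the first component, which is drawn reversed; TL embryo 1 lies lowest on the second.

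Between TL and AB embryos, 2864 of 12525 tested genes differed (22.9%) by edgeR's quasi-likelihood test with the replicate as block, at a Benjamini-Hochberg adjusted p under 0.05. Of these, 1336 (10.7% of tested genes) were higher in TL embryos and 1528 (12.2%) were higher in AB embryos. The median log2 fold change over all tested genes was 0.01. Differences over 2-fold counted 586 genes higher in TL and 808 higher in AB, those over 4-fold 225 and 368, and those over 16-fold 58 and 73. Every called gene had the same sign in both replicates, but the call used both, so this was close to fixed in advance. Without replicate 1, 1253 of the 2692 called genes with a value were called again in the same direction. Without replicate 2, 862 of 2774 were. In 1181 tested genes (9.43%), the TL and AB embryos did not overlap at all: the lowest TL embryo was above the highest AB embryo for 522 genes (4.17%), and the reverse held for 659 genes (5.26%). Genes of all abundances were called, from 18.8% of tested genes with a mean under 3 CPM to 28.0% of those between 10 and 30 CPM and 20.4% of those over 100 CPM. Clone names or bare IDs made up 208 of the genes higher in TL and 258 of those higher in AB.

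Of the genes with large fold changes, several were nearly undetected in all embryos of one strain. Low counts need not mean that the RNA was absent. The genome build and counting program are not given, and whether reads of both strains were counted alike was not tested at any stage. Among those higher in TL, taco1 (ENSDARG00000062943), an activator of translation of the mitochondrially encoded cytochrome oxidase subunit, had a lowest, median and highest level of 16.9, 29.7 and 43.3 CPM in TL embryos, against 0, 0.0801 and 0.212 CPM in AB embryos. Every TL embryo was far above every AB embryo, and no AB embryo had more than 3 counts of it. The fitted log2 fold change was 8.10 ± 0.48 (SE; edgeR adjusted p = 6.49e-08), a value that depends on the model's prior where one strain is so low. The ligand gene tgfb1a, of the TGF-beta family of secreted signals, had 24, 32.8 and 43.3 CPM in TL embryos and 0.312, 0.746 and 1.69 CPM in AB embryos (lowest, median, highest). The groups did not overlap and the log2 fold change was 5.27 ± 0.31 (edgeR adjusted p = 6.25e-08).

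KCNK5 (ENSDARG00000023587), a background potassium channel, had 22.2, 53.6 and 83.9 CPM in TL embryos, against 0, 0.16 and 1.07 CPM in AB embryos (lowest, median, highest), with a log2 fold change of 7.36 ± 0.62 (edgeR adjusted p = 1.57e-06). A second ID also carries the name KCNK5 and was not called, at 33.0 CPM in TL embryos and 27.1 CPM in AB embryos (edgeR adjusted p = 0.276). The homeobox gene HOXB2 had 11.3, 21.4 and 24 CPM in TL embryos and 0, 0.391 and 1.46 CPM in AB embryos, without overlap. The transcriptional coactivator eya2 averaged 18.4 ± 2.74 CPM in TL embryos and 0.826 ± 0.765 CPM in AB embryos (SD, n = 6 each). Their log2 fold changes were 5.06 ± 0.51 and 4.53 ± 0.40 (edgeR adjusted p = 9.8e-06 and 2.29e-06). ENPEP, a glutamyl aminopeptidase, RND3 (ENSDARG00000007396), an atypical small GTPase, and DNAI2, a dynein intermediate chain of ciliary axonemes, were likewise higher in every TL embryo, with log2 fold changes of 5.70 ± 0.56, 5.69 ± 0.57 and 5.24 ± 0.43. The second ID named RND3, ENSDARG00000076799, was called the other way, at 4.59 CPM in TL embryos and 10.8 CPM in AB embryos (log2 fold change -1.20, edgeR adjusted p = 0.0353). The diverse immunoglobulin-domain gene dicp1.16 was high in 5 TL embryos, at 6.28 to 22 CPM, but 0.462 CPM in TL embryo 4, against at most 0.156 CPM in AB embryos. Its log2 fold change was 7.68 ± 0.80 (edgeR adjusted p = 1.25e-05).

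MIF4GD is a name on 2 IDs, which differed in opposite directions. The ID ENSDARG00000102080, named for a protein that binds the histone stem-loop binding protein, had 10.6, 117 and 172 CPM in TL embryos, against 0.481, 0.708 and 1.84 CPM in AB embryos (lowest, median, highest). TL embryo 5 was at 10.6 CPM while the other TL embryos were at 101 CPM or more, and all 6 stayed above AB. The fitted difference was 6.92 ± 0.59 on the log2 scale (edgeR adjusted p = 1.65e-06). The other ID of that name, ENSDARG00000102578, ran the other way, at 23.4 CPM in TL embryos and 45.7 CPM in AB embryos (log2 fold change -1.04, edgeR adjusted p = 0.00527). Close copies may share reads, so the level of each is uncertain. Summed over both IDs the level was 129 ± 62.9 CPM in TL embryos and 46.6 ± 10.2 CPM in AB embryos (SD, n = 6 each). In that sum TL embryo 5, at 26.4 CPM, was below every AB embryo (33.0 to 58.4 CPM).

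Among the genes higher in AB, the zinc finger gene znf1156 had 0, 0.755 and 1.29 CPM in TL embryos, against 47.8, 72.3 and 142 CPM in AB embryos (lowest, median, highest). All AB embryos were far above all TL embryos (log2 fold change -6.77 ± 0.42, edgeR adjusted p = 1.04e-07). GLUL (ENSDARG00000099776), glutamine synthetase, had 1.19, 1.5 and 6 CPM in TL embryos, against 58.9, 89.3 and 103 CPM in AB embryos, again without overlap (log2 fold change -5.26 ± 0.30, edgeR adjusted p = 6.25e-08). Its second ID, ENSDARG00000100003, was more abundant and differed less, at 426 CPM in TL embryos and 602 CPM in AB embryos (log2 fold change -0.55, edgeR adjusted p = 0.0105). The cathepsin gene cts12, a lysosomal protease, had 0, 0.639 and 1.61 CPM in TL embryos and 12.7, 21 and 28.1 CPM in AB embryos (log2 fold change -5.18 ± 0.51), and selenow2b, a selenoprotein W gene, had 0, 0.162 and 0.805 CPM in TL embryos and 6.09, 11.2 and 20.2 CPM in AB embryos (log2 fold change -5.58 ± 0.56). Both separated the strains completely.

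Some of the largest differences higher in AB were carried by part of the AB embryos. The complement component gene c7b was at 23.0 to 26.9 CPM in AB embryos 1, 2, 3 and 5 but at 0.461 and 0.590 CPM in AB embryos 6 and 4, and at most 0.693 CPM in TL embryos. For c7b the log2 fold change was -5.73 ± 1.01 (edgeR adjusted p = 0.00094). The plexin gene plxnb2a.2, of the semaphorin receptors, was at 0.365 CPM in AB embryo 3 and at 7.47 CPM or more in the other AB embryos, against at most 0.693 CPM in TL embryos (log2 fold change -5.89 ± 0.89). The amino acid transporter slc38a5b had 56.9 to 66.8 CPM in AB embryos 1, 3 and 5 and 4.30 to 7.51 CPM in AB embryos 2, 4 and 6, all above the TL embryos, whose highest was 1.62 CPM. The log2 fold change of slc38a5b was -5.59 ± 0.93 (edgeR adjusted p = 0.000635). KCNJ1, a potassium channel whose name is on 7 IDs, TXNIP, a thioredoxin-interacting protein, and ELOVL4, a fatty acid elongase, were also higher in every AB embryo, with log2 fold changes of -5.41 ± 0.67, -5.27 ± 0.86 and -5.08 ± 0.48. TXNIP was uneven, at 1.59 and 1.57 CPM in AB embryos 2 and 4 and 6.45 to 37.3 CPM in the other AB embryos. Its highest TL embryo was at 0.923 CPM. Second IDs named TXNIP and ELOVL4 were not called (edgeR adjusted p = 0.411 and 0.0519).

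**Figure D2:**
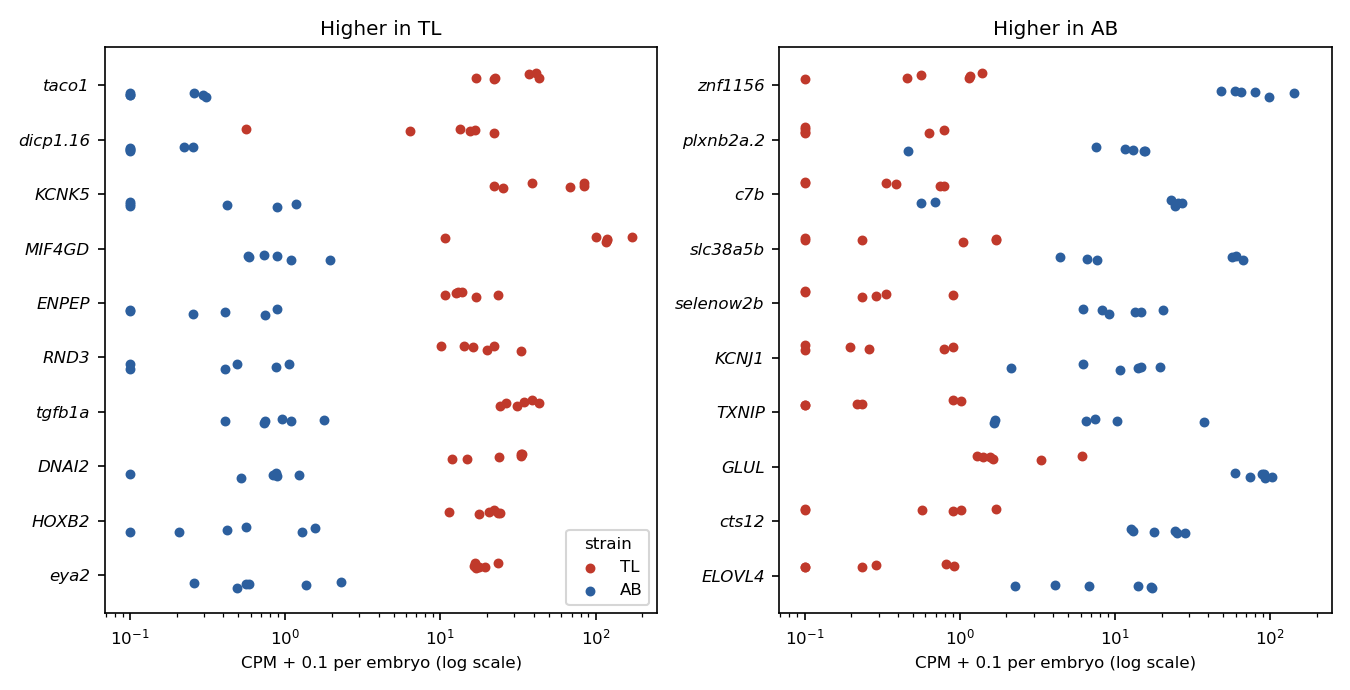
CPM plus 0.1 per embryo on a log axis for the 10 genes with the largest difference in each direction that met the naming rule, with TL embryos (red) drawn above AB embryos (blue) for each gene. In most genes every embryo of one strain lies apart from every embryo of the other. Close to the other strain lie TL embryo 4 for dicp1.16, AB embryo 3 for plxnb2a.2, AB embryos 4 and 6 for c7b and AB embryos 2 and 4 for TXNIP.

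Abundant transcripts also differed between TL and AB embryos. mkrn4, a makorin-family RING gene, had 2688, 3137 and 3642 CPM in TL embryos, against 1068, 1320.3 and 2077 CPM in AB embryos (lowest, median, highest), without overlap (log2 fold change 1.11 ± 0.12, edgeR adjusted p = 2.27e-05). S100A1, a calcium-binding protein, had 2036, 2571 and 4181 CPM in TL embryos, against 1003, 1668 and 1964 CPM in AB embryos (log2 fold change 0.81 ± 0.18). cirbpa, an RNA-binding protein, and eef2b, an elongation factor of translation, had log2 fold changes of 0.43 ± 0.12 and 0.36 ± 0.12 (edgeR adjusted p = 0.0186 and 0.0459), with overlapping embryos.

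Higher in AB among abundant transcripts were SIVA1, an apoptosis-linked gene, with 709, 809.9 and 1627 CPM in TL embryos, against 1712, 2198 and 2672 CPM in AB embryos. PPT2 (ENSDARG00000093176), a palmitoyl thioesterase, had 435, 572 and 876 CPM in TL embryos, against 937, 1300.2 and 1828 CPM in AB embryos. The strains did not overlap in either, with log2 fold changes of -1.20 ± 0.19 and -1.16 ± 0.16 (edgeR adjusted p = 0.0004 and 0.000131). The constitutive chaperone HSPA8 averaged 943 ± 76.3 CPM in TL embryos and 1421 ± 136 CPM in AB embryos (SD, n = 6 each; log2 fold change -0.59 ± 0.09, edgeR adjusted p = 0.000385). epcam, a cell adhesion protein, varied widely among AB embryos, with 482, 769.5 and 901 CPM in TL embryos, against 593, 2659 and 4708 CPM in AB embryos. Its log2 fold change was -1.85 ± 0.41 (edgeR adjusted p = 0.00469). NASP, a histone chaperone, had a log2 fold change of -0.43 ± 0.11 (edgeR adjusted p = 0.0103), with TL embryo 1 at 1515 CPM and the other TL embryos at 1057 to 1137 CPM.

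The gene lists that follow are set against the 22.9% called over all tested genes, 10.7% higher in TL and 12.2% higher in AB. That count of 2864 genes was itself 1436 without replicate 1 and 944 without replicate 2, settings that leave 3 embryos a strain. Over all tested genes, an unadjusted p under 0.05 was reached by 4419 of 12525 with all embryos. Without replicate 1 it was reached by 3223 of 11819, and without replicate 2 by 2803 of 12505. A gene nearly undetected in one strain could pass edgeR's filter on low counts through the other strain alone, as bmp7a, gsdf, tapbp.2 and cdx4 did. For such genes a call towards that other strain is not independent of the filter. Of 9 tested genes that help switch on the zygotic genome, 2 were called (22.2%), both higher in TL, a share near that of all genes. Their median log2 fold change was 0.34, but 0.13 without replicate 1 and 0.02 without replicate 2, where edgeR called none of 8, with 2 at an unadjusted p under 0.05. Voom called 2 higher in TL and 2 higher in AB. kpna7, a maternal importin alpha, had 814, 1008 and 1338 CPM in TL embryos, against 531, 651 and 764 CPM in AB embryos (log2 fold change 0.69 ± 0.13, edgeR adjusted p = 0.00167), without overlap. foxh1, a transcription factor of Nodal signalling and early enhancers, had 127, 194 and 211 CPM in TL embryos and 109, 132 and 177 CPM in AB embryos and overlapped between the strains (log2 fold change 0.41 ± 0.12, edgeR adjusted p = 0.0196). The core activators pou5f3, at 249 CPM in TL embryos and 246 CPM in AB embryos, and nanog, at 445 CPM in TL embryos and 504 CPM in AB embryos, did not pass the test (edgeR adjusted p = 0.907 and 0.325).

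The maternal axis and germ layer lists were called at or below the share of all tested genes (22.9%). In the Wnt list, 1 of 11 tested genes was called (9.09%), and none by edgeR without replicate 2, with 1 at an unadjusted p under 0.05: the repressor gene tcf7l1b had 43.3, 81.6 and 96.8 CPM in TL embryos, against 122, 142 and 162 CPM in AB embryos, lower in every TL embryo (log2 fold change -0.84 ± 0.16, edgeR adjusted p = 0.00157). The dorsal determinant hwa averaged 19.6 CPM in TL embryos and 21.3 CPM in AB embryos and was not called (edgeR adjusted p = 0.72). In the Nodal and Vg1 list, 2 of 9 were called (22.2%), tgfb1a and foxh1, while the Vg1 ligand gdf3 averaged 759 CPM in TL embryos and 818 CPM in AB embryos (edgeR adjusted p = 0.67). In the Bmp list, 2 of 9 were called (22.2%), 1 in each direction. The receptor bmpr1ba had 79.5, 109.5 and 152 CPM in TL embryos, against 57, 73.5 and 76.3 CPM in AB embryos, without overlap (log2 fold change 0.64 ± 0.11, edgeR adjusted p = 0.0011). The ligand bmp7a averaged 0.44 ± 0.124 CPM in TL embryos and 1.8 ± 1.14 CPM in AB embryos (SD, n = 6 each), near the level of 3 counts in most TL embryos (log2 fold change -1.97 ± 0.56, edgeR adjusted p = 0.0197). The call of bmp7a was lost on sums over 3 embryos, and without replicate 2 edgeR called no Bmp gene, with 1 at an unadjusted p under 0.05. Without TL embryo 1, a setting added after the values were seen, the Wnt list had 3 called genes (2 higher in TL, 1 higher in AB) and the Nodal and Vg1 list had 4, all higher in TL.

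Of 19 tested germ plasm genes, 3 were called (15.8%, against 22.9% of all genes), all higher in TL: the piRNA-binding Argonaute genes PIWIL1 and PIWIL2 and rgs14a, with log2 fold changes of 0.49, 0.54 and 0.55 (edgeR adjusted p = 0.0199, 0.0145 and 0.0036). PIWIL2 had 46.3, 54.6 and 82.6 CPM in TL embryos, against 34.4, 38.1 and 48.6 CPM in AB embryos, with overlap. buc, the organiser of germ plasm, averaged 1213 CPM in TL embryos and 1249 CPM in AB embryos and was not called, nor were DDX4, DAZL, NANOS3 and DND1. The median of the list was -0.02. The count was 1 on sums over 3 embryos, 1 without replicate 1 and 0 by edgeR without replicate 2, with 2 at an unadjusted p under 0.05. With TL embryo 1 left out, 5 were called, 3 higher in TL and 2 higher in AB.

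Of 26 tested egg coat and oocyte genes, 4 were called (15.4%, against 22.9% of all genes), 2 in each direction. zp2.3, a component of the egg envelope, had 56.6, 65.3 and 76.4 CPM in TL embryos, against 32.1, 35 and 39.4 CPM in AB embryos, without overlap (log2 fold change 0.90 ± 0.12, edgeR adjusted p = 0.000109). ZAR1L, an oocyte RNA-binding protein, was also higher in TL (log2 fold change 0.35 ± 0.10). bmp15, an oocyte growth factor, had 231, 307 and 356 CPM in TL embryos, against 379, 417 and 451 CPM in AB embryos, higher in every AB embryo (log2 fold change -0.48 ± 0.11, edgeR adjusted p = 0.00724). figla, an oocyte transcription factor, was lower in TL by log2 -0.56 (edgeR adjusted p = 0.0181). Of 19 maternal-effect loci tested, 3 were called (15.8%), all higher in TL. They were mid1ip1l, a cytoskeletal factor, CHUK and lrmp, with log2 fold changes of 0.43, 0.42 and 0.39. The maternal-effect count was 0 by edgeR without replicate 1, with 2 at an unadjusted p under 0.05. It was 1 without replicate 2 and 1 on sums over 3 embryos, and the egg coat and oocyte count was 2 without replicate 1 and 1 without replicate 2. Without TL embryo 1 the maternal-effect count was 6, all higher in TL, and the egg coat and oocyte count was 6, with 2 higher in TL and 4 higher in AB. gsdf, a gonadal somatic factor and the single called gene of 3 tested follicle genes, averaged 2.58 ± 1.28 CPM in TL embryos and 0.0916 ± 0.161 CPM in AB embryos (log2 fold change 4.79 ± 0.75, edgeR adjusted p = 0.000385). The summed follicle list was at 60.5 to 74.0 CPM in TL embryos and 59.3 to 117 CPM in AB embryos.

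Of 47 tested genes of RNA control and clearance, 7 were called (14.9%, against 22.9% of all genes), 3 higher in TL and 4 higher in AB. Without the replicate block, and on sums over 3 embryos, 0 were higher in TL and 2 higher in AB. elavl1a, an RNA-stabilising protein that protects maternal transcripts, had 205, 243 and 338 CPM in TL embryos, against 350.5, 464 and 551 CPM in AB embryos, without overlap (log2 fold change -0.85 ± 0.10, edgeR adjusted p = 3e-05). pabpc1b, a poly(A)-binding protein, averaged 3.83 ± 1.82 CPM in TL embryos and 14.7 ± 4.73 CPM in AB embryos (log2 fold change -1.93 ± 0.32), while its paralogue pabpc1a averaged 573 CPM in TL embryos and 535 CPM in AB embryos and was not called. METTL3 and lsm14aa were also lower in TL (log2 fold changes -0.52 and -0.47). Among those higher in TL were the decapping gene dcp1a and UPF1, an RNA helicase of nonsense-mediated decay, by log2 0.43 and 0.40 (edgeR adjusted p = 0.0207 and 0.048). Without TL embryo 1, 11 of 48 tested were called, 7 higher in TL and 4 higher in AB.

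The cleavage cycle list had 14 of 51 tested genes called (27.5%, with a background of 22.9%), 8 higher in TL and 6 higher in AB. The counts were 4 higher in TL and 3 higher in AB without replicate 1, and 3 and 1 without replicate 2. CCNA1, the embryonic cyclin A, had 709, 748 and 1002 CPM in TL embryos, against 448, 485 and 504 CPM in AB embryos, without overlap (log2 fold change 0.74 ± 0.10, edgeR adjusted p = 0.000101). The checkpoint kinase gene bub1bb averaged 139.5 ± 22.5 CPM in TL embryos and 75.9 ± 8.47 CPM in AB embryos (log2 fold change 0.88 ± 0.12). Lower in TL were RACGAP1, a cytokinesis protein, at 21.3, 31 and 36.9 CPM in TL embryos and 57.7, 61 and 66.3 CPM in AB embryos (log2 fold change -1.04 ± 0.14, edgeR adjusted p = 0.00012), and GMNN. Geminin (GMNN), the replication licensing inhibitor, had 215, 353 and 762 CPM in TL embryos and 744, 789 and 866 CPM in AB embryos (log2 fold change -1.14 ± 0.21). For GMNN the embryos overlapped through TL embryo 1 alone, at 762 CPM, while TL embryos 2 and 3 were at 457 and 480 CPM. The log2 fold change was -0.50 in replicate 1 and -1.79 in replicate 2. That difference between the replicates was not called (edgeR adjusted p = 0.0957).

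Chromatin genes gave 3 called of 26 (11.5%, against 22.9% of all genes), all lower in TL. dnmt3ba, a de novo DNA methyltransferase, averaged 2.85 ± 1.42 CPM in TL embryos and 15.3 ± 4.63 CPM in AB embryos (log2 fold change -2.43 ± 0.37, edgeR adjusted p = 0.000281). HDAC8 and HDAC1 had log2 fold changes of -0.94 and -0.45. Among 24 tested histone genes, 2 were higher in TL and 5 were higher in AB (29.2% in all), and without replicate 2 these counts were 1 and 2. h2ax1 had 104, 140.2 and 169.7 CPM in TL embryos, against 374, 459 and 907 CPM in AB embryos, without overlap (log2 fold change -1.88 ± 0.21, edgeR adjusted p = 2.52e-05). Without TL embryo 1, the chromatin list had 6 called of 27, with 3 in either direction, and the histone list had 4 higher in TL and 5 higher in AB. Histone genes form close copies, so reads may be shared among them.

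Cytosolic ribosomal protein genes, the parts of the translation machinery, were called in 22 of 80 tested (27.5%, against 22.9% of all genes), 21 of them higher in TL. Their median log2 fold change was 0.24, against 0.01 over all tested genes, and stayed between 0.21 and 0.27 in every alternative setting. The count higher in TL moved much more: it was 15 without TL embryo 1, 14 on sums over 3 embryos, 10 without the replicate block, 7 without replicate 1 and 1 without replicate 2, and 35 with voom. RPS2 had 233, 251 and 277 CPM in TL embryos, against 94.5, 154 and 208 CPM in AB embryos (log2 fold change 0.73 ± 0.14, edgeR adjusted p = 0.00162) and RPS15A had 166, 194 and 274 CPM in TL embryos and 75.7, 119 and 149 CPM in AB embryos (log2 fold change 0.79 ± 0.16). RPL29 alone was called lower in TL (log2 fold change -0.31 ± 0.10, edgeR adjusted p = 0.0415). The count lower in TL was 0 by edgeR without the replicate block, without either replicate and in the fit of all 48 embryos, and 3 with voom. Of 13 genes of the mitochondrial genome, MT-ND5 and mt-nd4l were called (15.4%), both higher in TL (log2 fold changes 0.77 and 0.69). mt-nd4l lost its call without TL embryo 1 (edgeR adjusted p = 0.0531). Without replicate 2, edgeR called none of the 13, with 3 at an unadjusted p under 0.05, and their median was -0.06, against 0.16 with all embryos.

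Families with many close copies held called genes in both directions. Of 7 tested finTRIM genes, a fish-specific family of TRIM proteins, 4 were called (57.1%, against 22.9% of all genes), 3 higher in TL and 1 higher in AB. These were 7 of 73 finTRIM IDs, of which 34 had no count in any of the 12 embryos. With no filter on low counts, edgeR called 6 higher in TL and 1 higher in AB of 39, and 3446 of all 23311 genes. DESeq2 called 5 higher in TL and 1 higher in AB of 73, and 3694 of all 32519 genes. ftr67 had 12, 24.4 and 34.6 CPM in TL embryos, against 219.9, 310.1 and 448 CPM in AB embryos, lower in every TL embryo (log2 fold change -3.75 ± 0.22, edgeR adjusted p = 6.25e-08). ftr83 averaged 10.8 ± 2.23 CPM in TL embryos and 2.72 ± 1.51 CPM in AB embryos (log2 fold change 1.98 ± 0.35). Among 130 tested genes named znf, 17 were higher in TL and 15 were higher in AB (24.6% in all, near the share of all genes). znf1014 had 122, 131 and 147 CPM in TL embryos, against 35.4, 40.5 and 47.3 CPM in AB embryos without overlap (log2 fold change 1.68 ± 0.10, edgeR adjusted p = 9.72e-08). znf1153 ran the other way with 0.805, 1.51 and 2.67 CPM in TL embryos and 10.9, 29.4 and 39.2 CPM in AB embryos (log2 fold change -3.96 ± 0.26). Of 12 antigen processing genes tested, 3 were called (25%, near the share of all genes), all lower in TL: tapbp.2, a peptide-loading protein, psmb12, an immunoproteasome subunit, and DAXX, a histone chaperone, with log2 fold changes of -4.59, -2.31 and -0.84. tapbp.2 was low in AB embryos 1, 2, 3 and 5, at 0.781 to 1.92 CPM. It was at 12.6 and 8.45 CPM in AB embryos 4 and 6, and at most 0.535 CPM in TL embryos. mhc1zfa, an MHC class I gene outside the list, was higher in TL (log2 fold change 4.86, edgeR adjusted p = 0.000211).

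pfn1, profilin, an actin-binding protein, had 29.4, 36 and 48.6 CPM in TL embryos, against 90.1, 109.9 and 119 CPM in AB embryos, lower in every TL embryo (log2 fold change -1.57 ± 0.12, edgeR adjusted p = 8.13e-07). tuba8l4, a tubulin, averaged 514 ± 76 CPM in TL embryos and 318 ± 69.2 CPM in AB embryos (log2 fold change 0.69 ± 0.14). pgam1a, a glycolytic mutase, had 117, 144 and 218 CPM in TL embryos, against 234, 293 and 349 CPM in AB embryos (log2 fold change -0.97 ± 0.11, edgeR adjusted p = 2.8e-05). SDHB, a subunit of succinate dehydrogenase, averaged 18.5 ± 2.08 CPM in TL embryos and 54.2 ± 20.8 CPM in AB embryos, with AB embryo 5 at 15.2 CPM. The peroxiredoxin prdx6 was lower in TL by log2 -0.91 (edgeR adjusted p = 0.000194). Solute carriers counted 22 higher in TL and 30 higher in AB of 204 tested (25.5% in all, near the 22.9% of all genes). The vesicular nucleotide transporter SLC17A9 had 33.6, 36.8 and 48.8 CPM in TL embryos, against 82.4, 135 and 167 CPM in AB embryos (log2 fold change -1.76 ± 0.16, edgeR adjusted p = 2.69e-06). SLC46A1, a folate transporter, had 28.4, 44.5 and 64.2 CPM in TL embryos and 4.02, 9.18 and 20.5 CPM in AB embryos (edgeR adjusted p = 4.7e-05). Of 51 proteasome genes tested, 5 were higher in TL and 4 were higher in AB (17.6% in all). None of 10 tested yolk genes was called by edgeR, with 2 at an unadjusted p under 0.05 and 1 called by DESeq2, and none of 4 tested adult tissue genes was, with 0 at an unadjusted p under 0.05 and 0 called by DESeq2. With TL embryo 1 left out, edgeR called 1 yolk gene of 11 tested, higher in TL.

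**Figure D3:**
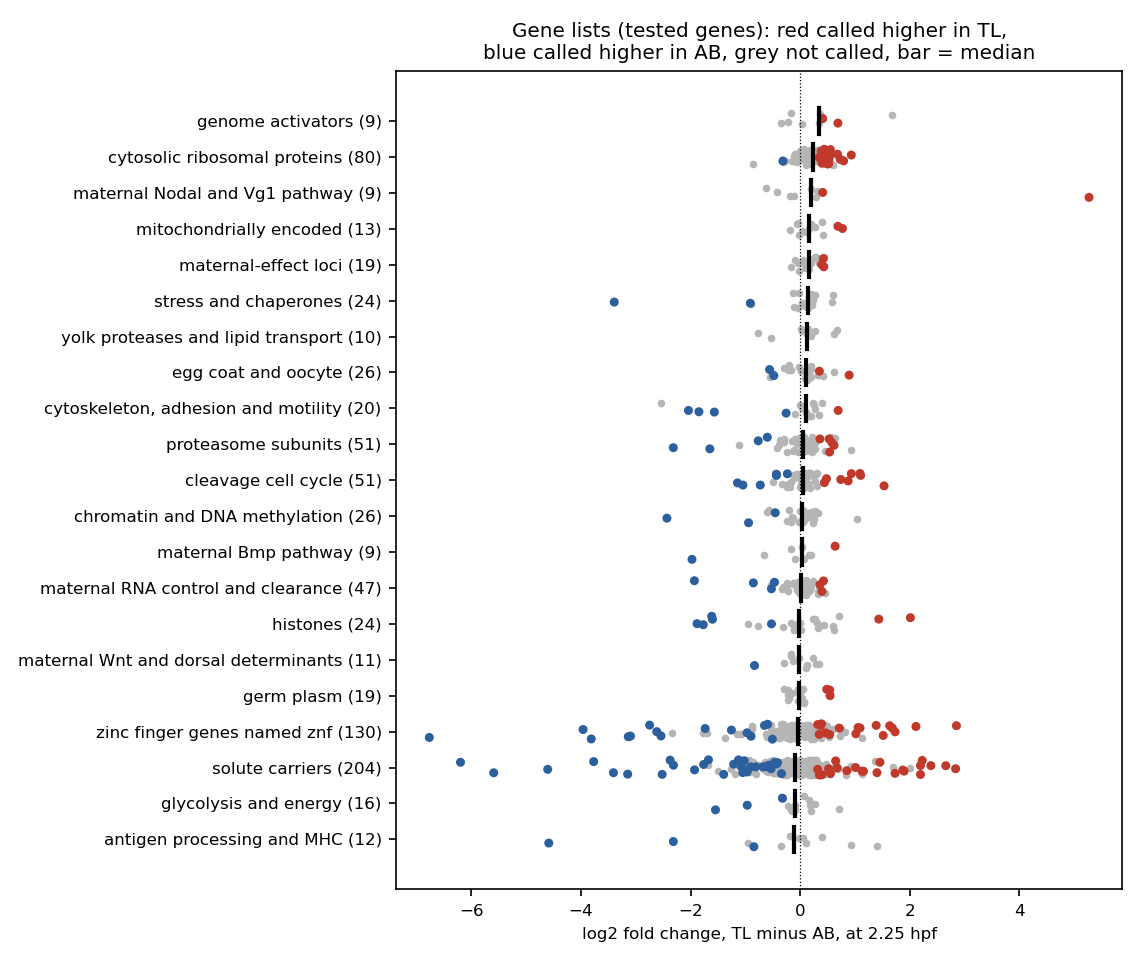
Log2 fold change, TL minus AB, of every tested gene in lists with 9 or more tested genes, with the number tested in brackets. Red points are called higher in TL, blue points called higher in AB, grey points not called, and the black bar is the median. It lies near 0 in most lists, at 0.34 for genome activators, 0.24 for cytosolic ribosomal proteins and 0.20 for the Nodal and Vg1 list.

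Genes that normally await the zygotic genome were low in both strains. The summed level of 34 such genes, of which 30 had a count in TL embryos and 31 in AB embryos, was 17.7 to 32.0 CPM in TL embryos and 38.6 to 56.5 CPM in AB embryos, without overlap. Only 6 of the 34 passed the filter on low counts, and 2 of these were called, where 22.9% of all tested genes were. The count was 1 without the replicate block, on sums over 3 embryos and without replicate 1, and 0 by edgeR without replicate 2, with 1 at an unadjusted p under 0.05. The dorsal gene GSC, goosecoid, had 0.401, 1.81 and 4.89 CPM in TL embryos, against 2.86, 7.44 and 13.8 CPM in AB embryos (log2 fold change -2.07 ± 0.53, edgeR adjusted p = 0.0104). cdx4 had 0, 0.234 and 1.05 CPM in TL embryos and 0, 1.75 and 2.97 CPM in AB embryos (log2 fold change -2.33 ± 0.72, edgeR adjusted p = 0.0298). cdx4 lost its call without TL embryo 1 (edgeR adjusted p = 0.0527). It passed the filter on low counts through AB embryos alone, so its call higher in AB is not independent of the filter. The summed enveloping layer and yolk syncytial layer genes overlapped, at 30.7 to 45.5 CPM in TL embryos and 29.7 to 37.0 CPM in AB embryos. Whether the embryos of the strains were at the same moment of development was not tested here.

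Many of the strain differences at 2.25 hpf were also called at later stages, in other embryos. The parents of those embryos are not given either, so whether they share clutches with the 2.25 hpf embryos cannot be told. Of the 2864 genes called at 2.25 hpf, 2787 were also tested at 3.25 hpf, and 1665 of them (59.7%) were called there in the same direction, with 1 called in the opposite direction. At 4.25 hpf the count was 1870 of 2777 (67.3%) with 3 opposite, and at 5.25 hpf it was 1147 of 2671 (42.9%) with 6 opposite. Over all tested genes, strain calls at those stages made up 18.5%, 24.1% and 15.7%. For znf1156 the log2 fold change was -6.77 at 2.25 hpf and -6.24 at 5.25 hpf, and for KCNK5 it was 7.36 at 2.25 hpf and 6.07 at 5.25 hpf. By contrast taco1 was 8.10 at 2.25 hpf, 6.42 at 3.25 hpf, 4.13 at 4.25 hpf and 1.45 at 5.25 hpf, and its difference from the later stages was not called (4.06 ± 1.34 SE, edgeR adjusted p = 0.592).

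A test of whether the strain effect at 2.25 hpf differed from the mean of the later stages, in one edgeR fit of 48 embryos, called 9 of 15068 genes (0.0597%). The count was 0 without replicate 1 by edgeR, was 3 without replicate 2, and was 2 without the replicate block. An unadjusted p under 0.05 was reached by 561 of 14368 genes without replicate 1, and by 695 of 15068 with all embryos. igsf3l, of the immunoglobulin superfamily, had 2.31, 10.2 and 14.8 CPM in TL embryos, against 0, 0.141 and 0.614 CPM in AB embryos. Its log2 fold change of 5.22 at 2.25 hpf was followed by 3.43, 0.88 and -1.44 at the later stages in turn. That difference was 4.27 ± 0.74 (SE; edgeR adjusted p = 0.0101). zgc:100951 had 1.15, 1.54 and 3.42 CPM in TL embryos, against 1.18, 23.3 and 65.2 CPM in AB embryos, with overlap. For it the log2 fold change was -4.04 at 2.25 hpf and between -1.45 and -0.45 later (difference -3.27 ± 0.59, edgeR adjusted p = 0.0101). plex9.2 was lower in TL at 2.25 hpf by log2 -0.55 and higher in TL by 0.72, 0.49 and 0.45 at the later stages (difference -1.09 ± 0.20, edgeR adjusted p = 0.0101). The chemokine receptor gene CXCR4 (ENSDARG00000041959), one of 2 IDs of that name, had a log2 fold change of 1.59 at 2.25 hpf and 0.14, 0.00 and -0.35 later.

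**Figure D4:**
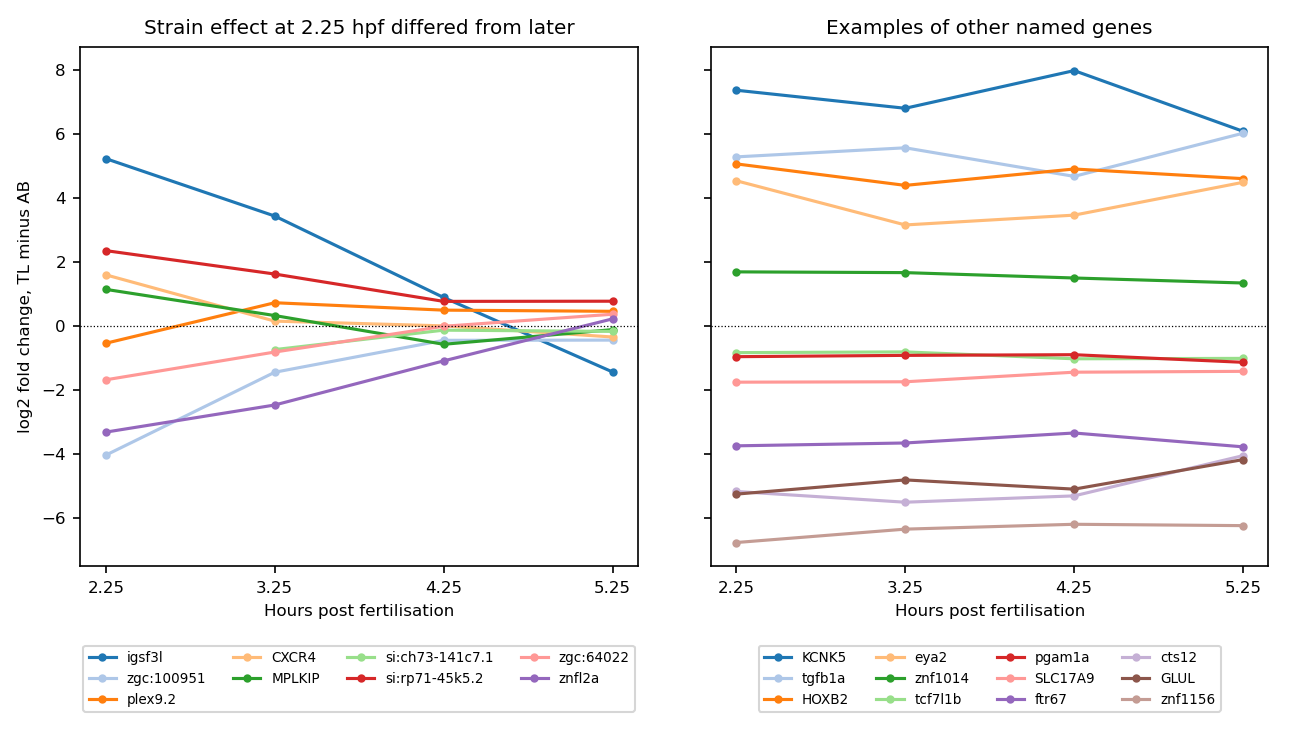
Log2 fold change, TL minus AB, at each of the 4 stages. Left, the 9 genes whose strain effect at 2.25 hpf differed from later stages, among which igsf3l is at 5.22 at 2.25 hpf and -1.44 at 5.25 hpf; right, 12 other named genes chosen as examples after their values were seen, whose effects keep their sign. The gene si:ch73-141c7.1 has no point at 2.25 hpf, where it did not pass the filter on low counts.

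A strain by replicate difference, a strain effect unequal between the biological replicates, was called by edgeR for 14 of 13031 genes (0.107%), with sizes of 2.86 to 9.63 on the log2 scale. Within a strain, replicate 2 against replicate 1 gave 149 calls in TL (1.14%) and 100 in AB (0.767%), of which 19 were shared and all had the same sign. Without TL embryo 1, which stood apart on the second component, the counts were 118 in TL and 806 in AB. The calls for either strain came to 230 of the 13031 genes, and 80 of them (34.8%) were also called between strains. Of all 12525 genes in the strain test, 22.9% were called. The replicate and strain tests used the same embryos, so their calls are not independent. Replicate and sequencing run coincide in the labels and cannot be told apart.

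RRM2, the small subunit of ribonucleotide reductase, which makes the building blocks of DNA, is a name on 2 IDs whose parts of the summed level varied between embryos. The ID ENSDARG00000078069 was at 558, 452 and 449 CPM in TL embryos 1, 2 and 3 and at 16.6, 14.7 and 17.9 CPM in TL embryos 4, 5 and 6, against 418 to 803 CPM in AB embryos. The other ID, ENSDARG00000020711, was at 444 to 562 CPM in TL embryos 1 to 3 and 1008 to 1149 CPM in TL embryos 4 to 6. It was at 7.18, 8.89 and 21.2 CPM in AB embryos 1, 2 and 5 while AB embryos 3, 4 and 6 held 442 to 582 CPM. Summed over both IDs, the level was 1037 ± 115 CPM in TL embryos and 882 ± 115 CPM in AB embryos (SD, n = 6 each), with single embryos between 782 and 1166 CPM. The strain by replicate difference of the first ID was -4.69 ± 0.37 (edgeR adjusted p = 6.28e-05). Close copies may share reads, so the level of each RRM2 ID, and this difference, is uncertain. STOX2 was near AB in TL replicate 1 and low in replicate 2, with log2 fold changes of -0.08 and -4.72, and FAM131C was the reverse, with -6.92 and -0.08.

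Further genes had 2 separate levels within a strain. A description made after the values were seen counted genes with a mean of at least 10 CPM in a strain and a gap of at least 4-fold between embryos of that strain, with 2 or more embryos on each side. It found 19 of 8327 genes in TL and 26 of 8425 in AB. In TL, 9 of the 19 split exactly by replicate; in AB, 3 of the 26 did and the other 23 mixed the replicates. The commonest AB split, in 7 genes, set embryos 1 and 5, of different replicates, apart from the other 4. The cell-surface gene thy1 was of this kind, at 1111 CPM in AB embryo 1 and 1556 CPM in AB embryo 5 and at 123.1 to 156 CPM in the other AB embryos, while TL embryos held 1599.9 to 3481 CPM. HSDL1 was at 109 and 105 CPM in AB embryos 4 and 6 and 18 to 21.4 CPM in the other AB embryos. The low ones included AB embryo 5, of replicate 2. In TL, HSDL1 was at 52.0 to 72.7 CPM in embryos 4 to 6 and 17.2 to 21.5 CPM in embryos 1 to 3. That gap parted the TL replicates but did not reach 4-fold.

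**Figure D5:**
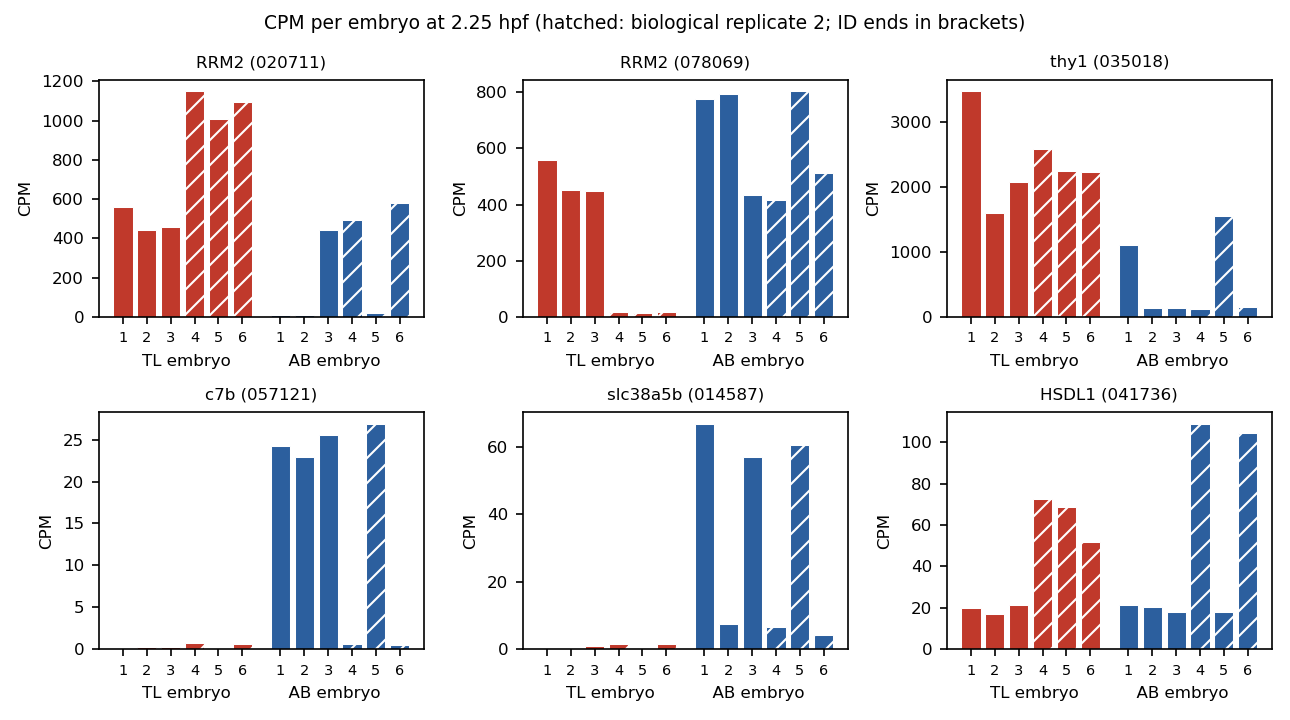
CPM per embryo at 2.25 hpf for both RRM2 IDs, thy1, c7b, slc38a5b and HSDL1, with TL embryos (red) left of AB embryos (blue) and hatched bars for biological replicate 2. The bars fall into high and low levels within a strain, for example RRM2 (ENSDARG00000078069) at 14.7 to 17.9 CPM in TL embryos 4 to 6.

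Neighbouring genes were compared by gene order. Matched by symbol to the RefSeq gene order of assembly GRCz12tu, 9252 of 12525 tested genes were placed and gave 9227 neighbouring pairs. Neighbours here are placed tested genes that follow one another, so untested or unplaced genes may lie between them. Both genes were called in 529 pairs. The pair moved in the same direction in 279 cases and in opposite directions in 250 (52.7% in the same direction). Among pairs with neither gene called, 49.3% had the same sign. A gene was called in 25.7% of cases when the gene before it was called and in 21.3% when it was not. The longest runs in one direction had 5 genes, such as TARBP2, zgc:66479, igfn1.1 and GRM4 after si:dkey-7k24.5, all higher in AB. Neighbours in opposite directions included mhc1zfa, an MHC class I gene, with a log2 fold change of 4.86, beside zgc:172051 at -5.34. mhc1zfa was at 1.61 to 8.54 CPM in TL embryos and at most 0.801 CPM in AB embryos, while zgc:172051 was at most 0.535 CPM in TL embryos and 1.92 to 24.7 CPM in AB embryos.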

How the data were processed

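The deposited values were whole-number counts per Ensembl gene ID, one table per stage; per the submitters' processing notes the tools bcl2fastq 2.19.0.316, STAR 2.7.1a and edgeR 3.26.8 were used, with no role or order given. The genome build, the counting program, the use of strand and the handling of molecular identifiers are not given in the sources used here. Reads of one molecule may thus be counted more than once. The ± values are SDs between embryos or SEs from edgeR's test. Per the labels, the library index differed by stage, and 2 sequencing runs were made of either biological replicate.

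The counts of 12 embryos (6 TL, 6 AB) were tested with edgeR 4.0.16 (limma 3.58.1, R 4.3.3): ENSDARG00000080337 was removed before library sizes, then filterByExpr, TMM and glmQLFTest on strain with the biological replicate as block. A gene was called where its adjusted p (Benjamini-Hochberg) was below 0.05, and fold changes are log2, TL minus AB, with an SE. The SE was taken as the absolute fold change divided by the square root of the test's F statistic. It thus follows from the test and is not a separate estimate of precision. CPM values come from edgeR's cpm function with TMM factors. The block was taken from the labels' replicate numbers, which tie embryos to sequencing runs: deviations from the strain means correlated at 0.310 between the strains' replicate means, and at 0.0856 for embryos with the same number. Per-embryo quantities used exact permutation tests over 400 labellings. None of the 30 pairs of embryos checked, which were not all possible pairs, agreed within sampling noise (chi-square per degree of freedom 8.44 to 52.7). On simulated data, 100 changes of each size were planted in genes above a minimum mean count. The simulated embryos were independent, with a spread set by abundance alone. The strain test recovered 71% of the 2-fold and 99% of the 4-fold changes, in a run of 12208 genes. The strain by replicate test recovered 14% and 64%, in a run of 12623 genes. These shares do not give the recovery over all tested genes.

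Symbols paired 29201 of 32520 IDs; list genes were matched where one ID carries the symbol. Named genes were the 10 largest and 5 most abundant called genes in each direction with a mean of at least 10 CPM in the higher strain (abundance and size rule), the called genes of each list with the smallest p, and the 3 genes with the smallest p of each interaction. Genes outside this rule, among them list members that were not called, CXCR4, thy1, HSDL1 and mhc1zfa, were chosen after their values were seen. The members, lists and tests were chosen with earlier results of these data known, and after values were seen S6 kinases were taken out of the ribosomal list and 1 gene out of the Bmp list. One called gene of the RNA control list is not reported here. Alternatives were other size factors, no filter, the abundant ID kept, no block, sums over embryos, DESeq2 1.42.0, limma voom and leaving out replicates or TL embryo 1.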

Additional observations from a re-analysis of the deposited data

Results flagged for a closer look

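Among 186 groups of 6 embryos checked for one value far from the others, 13 were picked out. Chance gives about 1 in 20 for normally spread values in independent groups. These groups are CPM values that share the same embryos, so that rate need not hold. In TL embryo 1, which stood apart on the second principal component, foxh1 (127 CPM), eef2b (1115 CPM) and tcf7l1b (43.3 CPM) were lower and NASP (1515 CPM) was higher than in the other TL embryos. TL embryo 4, the shallowest library, was low for dicp1.16 (0.462 CPM) and igsf3l (2.31 CPM), and TL embryo 5 was low for MIF4GD (10.6 CPM). AB embryo 1 was high for h2ax1 (907 CPM) and low for SLC10A3 (6.4 CPM) and hsp70.1 (0 CPM). AB embryo 3 was low for plxnb2a.2 (0.365 CPM), AB embryo 4 for H3C15 (0.393 CPM) and AB embryo 5 for SDHB (15.2 CPM). The strain effect at 2.25 hpf differed from later stages for igsf3l (4.27), plex9.2 (-1.09) and zgc:100951 (-3.27 on the log2 scale), by the test of the difference itself.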

How the results depend on the processing

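All called genes that had a value kept their sign under every alternative run. Each run used the embryos behind the calls or part of them, so this was close to fixed in advance. The count of 2864 called genes was 944 to 1436 when one replicate was left out (363 to 636 higher in TL, 581 to 800 higher in AB), 2112 with no replicate block, 2025 on sums over 3 embryos with the replicate block and 3218 without TL embryo 1 (1515 higher in TL, 1703 higher in AB; chosen after seeing the data). With limma voom, whose estimated correlation of embryos of one strain and replicate was -0.163, it was 4639 (2235 higher in TL, 2404 higher in AB). Of 92 named genes, 90 were called. Without replicate 2, 33 lost their call, and without replicate 1, 20 did. The losses were 11 on sums over 3 embryos, 8 in the fit of all 48 embryos and 8 without the replicate block. Named genes with no value in a setting are not among these losses. Without TL embryo 1, mt-nd4l and cdx4 lost their calls (edgeR adjusted p = 0.0531 and 0.0527). The count of strain effects that differed from later stages was 9, but 18 with no filter, 2 with no replicate block, and 0 to 3 when one replicate was left out. Strain by replicate calls were 14, and 140 with no filter. Replicate 2 against 1 gave 149 in TL and 532 with no filter, and 100 in AB, 608 with no filter and 806 without TL embryo 1. The difference in depth was 238962 counts, and -1834880 with ENSDARG00000080337 kept in the totals (exact permutation p = 0.16). The cause of these changes was not tested. Counting limits low genes: 3 counts correspond to 0.286 to 0.693 CPM per embryo.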
